A study of Homo sapiens with 6 samples.

Results

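NRF2, the transcription factor encoded by NFE2L2, was followed through its mRNA, that of its inhibitor KEAP1 and its partner MAFG, and 7 of its oxidative stress target genes: NQO1, HMOX1, GCLC, GCLM, TXNRD1, SRXN1 and TXN. These 10 genes were taken by symbol from a count table of 26490 gene symbols. All 10 were found there and all 10 passed the expression filter. The RNA-seq libraries are labelled as SW403, an established human colon adenocarcinoma line. One group of 3 libraries was the control, with normal IRS2 expression (genotype WT in the labels), and the other group of 3 carried an IRS2 knockdown (genotype IRS2_knockdown). IRS2 encodes insulin receptor substrate 2, an adaptor that links insulin and IGF1 receptors to downstream kinases. Both groups grew for 24 h in DMEM with 10% FBS, and the labels name no added oxidant or other treatment. The sample descriptions write NS for control and IRS2KO for knockdown, while titles and genotypes name a knockdown, and these letters are not explained in the sources used here. How IRS2 was lowered, and whether separate lines were made for each culture, is not given in the sources used here. P-values therefore measure the spread between these cultures, which may be technical.

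NRF2 is a basic leucine zipper factor whose protein is normally short-lived. KEAP1 holds it in the cytoplasm and, as the adaptor of a CUL3 ubiquitin ligase, marks it for degradation. Oxidants and electrophiles modify cysteines of KEAP1, NRF2 then accumulates, pairs with a small MAF protein such as MAFG, and binds antioxidant response elements near genes for glutathione synthesis, thioredoxin reduction, quinone reduction and heme breakdown. BACH1 competes with NRF2 for many of the same elements, that of HMOX1 above all. Since much of this control acts on the NRF2 protein, mRNA of NFE2L2 is not a measure of NRF2 activity. The pathway guards the gut epithelium against reactive compounds in food and is often raised in carcinomas.

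The stretches below are shown because antioxidant response elements are the DNA through which NRF2 reaches its targets. The 1000 bases upstream of the start of each gene's canonical transcript were searched on both strands for the letters TGACNNNGC, a short form of the element, and for the stricter TGACTCAGC, which is contained in it. Capitals mark the match, with 16 bases on each side where the window allows, on the gene's strand. A match on the opposite strand therefore reads in reverse complement. The build is GRCh37, which equals the hg19 named in the submitters' processing notes.
NQO1 (chr16:69760894-69760934, match 447 bases upstream): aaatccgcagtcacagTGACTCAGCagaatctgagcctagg
GCLM (chr1:94374996-94375036, opposite strand, 26 bases upstream): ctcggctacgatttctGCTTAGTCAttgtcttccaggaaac
TXNRD1 (chr12:104609442-104609482, 91 bases upstream): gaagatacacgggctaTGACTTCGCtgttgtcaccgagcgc
TXN (chr9:113019344-113019384, opposite strand, 573 bases upstream): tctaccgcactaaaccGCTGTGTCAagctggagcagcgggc
GCLC (chr6:53410745-53410785, opposite strand, 862 bases upstream): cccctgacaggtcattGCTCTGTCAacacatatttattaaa

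The short form was thus found upstream of the canonical start of 5 of the 10 genes, against 32.5% of 19869 protein-coding genes. The GCLC match is upstream of the canonical transcript only, and lies inside the annotated gene (chr6:53362139-53481768). The stricter form was found upstream of NQO1 alone among the 10, against 1.3% of all. These matches describe letters in the windows and do not show that the sites are bound. In the other 5 windows the letters were not present, which says nothing of elements farther away.

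Control libraries held 11816973 to 12585013 counts and knockdown libraries 14329348 to 18114656, so every knockdown library was deeper. Mitochondrial genes took 5.28% to 5.58% of counts in control and 5.78% to 5.81% in knockdown. IRS2, the targeted gene, was at 32.2 to 34.8 CPM (counts per 1000000 counts of the library) in control and at 11.9 to 13.0 CPM in knockdown (log2 fold change -1.39 ± 0.07 SE, edgeR adjusted p = 3.12e-11). Of 12 colon epithelial markers, 6 passed the expression filter, and the summed level of the 12 was 2537 to 2637 CPM in control and 2364 to 2456 CPM in knockdown. KRT20, CDX1 and CEACAM5 had no count in any library, and CDH1 had 0 to 5, LGALS4 0 to 3 and CDH17 1 to 11 counts per library, which goes against the colon epithelial label. KRT8, KRT18, KRT19, EPCAM, CDX2 and VIL1 were expressed, and the identity of the line was not tested. Of these 6, KRT19 and EPCAM fell (edgeR adjusted p = 4.35e-08 and 0.00581), CDX2 rose (0.0148), and KRT8, KRT18 and VIL1 did not pass the threshold. Of 16 fibroblast, endothelial and leukocyte markers, 3 were tested. COL1A1 was at 15.3, 5.73 and 5.67 CPM in control and at 4.26, 3.633 and 3.975 CPM in knockdown, so its control level rests largely on replicate 1. Its log2 fold change was -1.15 (edgeR adjusted p = 0.0029), and -0.50 without that library (0.0325). COL3A1 was at 2.70, 1.51 and 0.423 CPM in control and at 0.419, 0.176 and 0.773 CPM in knockdown, with overlapping groups. It was called lower with all libraries (edgeR adjusted p = 0.0136) and not without control replicate 1 (0.179). PECAM1 and CDH5 had no count in any library. The summed level of the 16 markers was 11.4 to 30.1 CPM in control, with the highest value in replicate 1, and 8.32 to 9.88 CPM in knockdown. With CPM by library totals, the groups were thus also separate in mitochondrial share and in both marker sums. The epithelial sum is mostly KRT8 and KRT18, which were not called. Their means were 1106 and 1131 CPM in control and 1043 and 1071 CPM in knockdown. The part of these differences in the results below was not tested. In bulk RNA, fewer cells of a type and less RNA per cell cannot be told apart.

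The NRF2 genes were mostly higher in knockdown. NFE2L2, KEAP1, NQO1, HMOX1, GCLC, GCLM, TXNRD1 and SRXN1 rose, TXN and MAFG did not pass the threshold, and 0 of the 10 fell (adjusted p under 0.05, edgeR's quasi-likelihood test over 13832 genes). The 8 risers compare with 19.3% of all tested genes called higher, 19.2% called lower and 38.5% called in either direction. For the same 8 genes every knockdown library was above every control library in CPM, against 19.6% of tested genes with that order, 28.8% with the reverse order and 48.4% with either. The median log2 fold change of the 10 genes was 0.26, and that of all tested genes was -0.00. The changes were modest, from 1.07-fold for KEAP1 to 1.36-fold for HMOX1. Together the 10 genes took 0.170% to 0.172% of the counts of a control library and 0.197% to 0.201% of a knockdown library. Without control replicate 1, the library with the most counts for collagen genes, 8 of the 10 were again called higher. In that fit 16.4% of all tested genes were called higher.

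**Figure D1:**
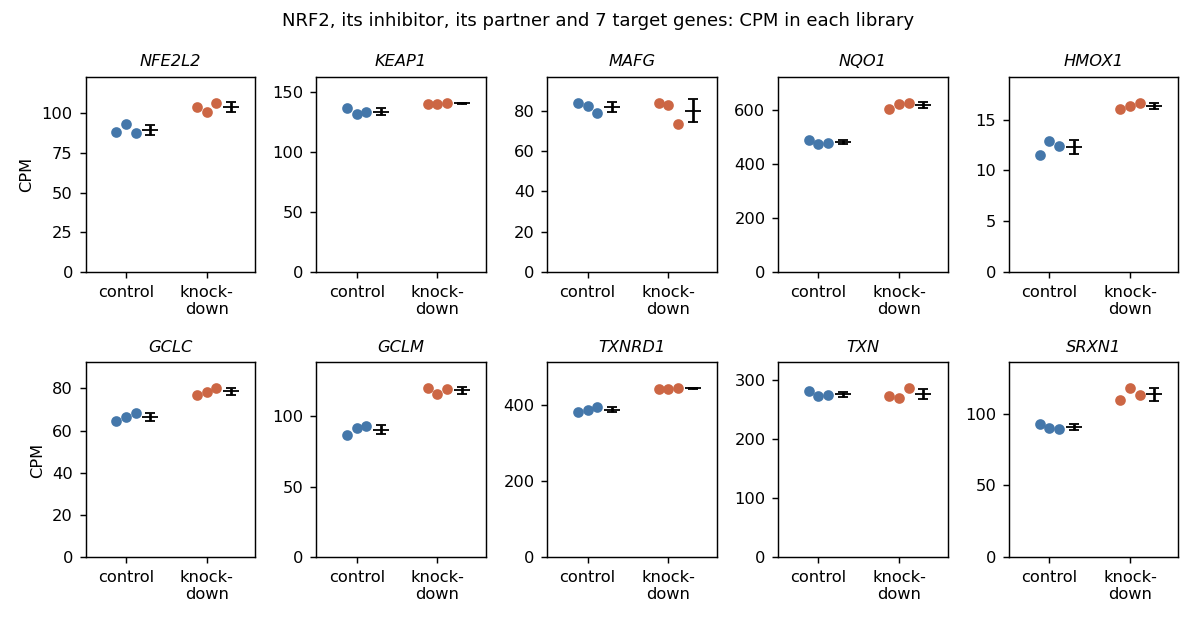
CPM of the 10 NRF2 genes in each library (dots; y axes start at 0), with the mean and SD of each group of 3 (black). The groups overlap for MAFG and TXN, and every knockdown library lies above every control library for the other 8 genes.

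NFE2L2 itself rose. The gene (ENSG00000116044, chr2:178083395-178257484, minus strand, canonical transcript of 5 exons) was at 88.0, 93.1 and 87.3 CPM in the control libraries and at 104.1, 100.5 and 106.7 CPM in the knockdown libraries. The lowest knockdown library was above the highest control library. The group values were 89.5 ± 3.14 and 103.8 ± 3.12 CPM (SD, n = 3 each), a log2 fold change of 0.24 ± 0.04 (SE) with an edgeR adjusted p of 0.000151. Exons of an annotated gene on the opposite strand cover 190 nt of the transcript. Whether counting used strand is not given in the sources used here, so reads from such partners cannot be told apart.

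KEAP1, which presents NRF2 for degradation, rose slightly. Its values (ENSG00000079999, chr19:10596801-10614234, minus strand, 6 exons) were 136.2, 131.2 and 132.9 CPM in control and 140.1, 140.0 and 140.9 CPM in knockdown. The groups were separate, but by only a few CPM. The log2 fold change was 0.10 ± 0.03 (SE; edgeR adjusted p = 0.0247). This call did not hold in 9 of 18 alternative fits. The adjusted p was 0.104 with library size alone, 0.0761 with upper-quartile factors and 0.0691 both in DESeq2 and after a length and GC correction, which subtracts from each library the trend of log2 CPM with these 2 properties of the transcript. It was 0.0880 without control replicate 2, 0.0557 without control replicate 3 and 0.0652 without knockdown replicate 2.

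MAFG, the small MAF partner, gave no difference past the threshold. It was at 84.1, 82.2 and 79.0 CPM in control and at 83.7, 83.0 and 73.6 CPM in knockdown (ENSG00000197063, chr17:79876146-79885611, minus strand, 3 exons). The groups overlapped, and knockdown replicate 3 was the lowest of all. The log2 fold change was -0.0021 with a 95% interval from -0.11 to 0.10 (edgeR adjusted p = 0.98), and its sign turned in 7 of 18 alternative fits. Without knockdown replicate 3 it was 0.055 (edgeR adjusted p = 0.372). SIRT7, which has its own row in the count table (mean of 513.5 counts), shares 105 nt with the exons of MAFG.

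NQO1 gave the smallest p of the 10 genes. It encodes a quinone reductase and is a standard readout of NRF2, and the stretch with the stricter element letters shown above lies upstream of it. NQO1 (ENSG00000181019, chr16:69740899-69760571, minus strand, 6 exons) was at 488.8, 474.2 and 481.0 CPM in control and at 606.7, 622.7 and 629.3 CPM in knockdown. The gap between the groups was several times the spread within them. The group values were 481 ± 7.31 and 620 ± 11.6 CPM (SD, n = 3 each). The log2 fold change was 0.39 ± 0.03 (SE, edgeR adjusted p = 3.6e-09), and NQO1 ranked 116 by p among 13832 genes. Exons of an annotated gene on the opposite strand cover 575 nt of its transcript.

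HMOX1 had the largest fold change and the lowest expression of the 10. It encodes heme oxygenase 1, which opens the heme ring to biliverdin, iron and carbon monoxide. The libraries held 145, 162 and 146 counts in control and 230, 278 and 302 in knockdown, or 11.5, 12.9 and 12.4 against 16.1, 16.3 and 16.7 CPM (ENSG00000100292, chr22:35776354-35790207, plus strand, 5 exons). All 3 knockdown libraries were above all 3 control libraries. The log2 fold change was 0.45 ± 0.08 (SE; edgeR adjusted p = 0.000332), and the lower counts give it the widest 95% interval of the 10, from 0.27 to 0.62.

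Both subunits of glutamate-cysteine ligase, the enzyme of the rate-limiting step of glutathione synthesis, rose. GCLC, the catalytic subunit (ENSG00000001084, chr6:53362139-53481768, minus strand, 16 exons), was at 64.5, 66.6 and 68.2 CPM in control and at 76.9, 78.3 and 80.2 CPM in knockdown. GCLM, the modifier subunit that raises the catalytic efficiency (ENSG00000023909, chr1:94350755-94375012, minus strand, 7 exons), was at 86.5, 91.4 and 92.8 CPM in control and at 119.9, 115.4 and 119.4 CPM in knockdown. The groups of both genes were separate. The log2 fold changes were 0.27 ± 0.04 for GCLC (SE; edgeR adjusted p = 6.34e-05) and 0.42 ± 0.04 for GCLM (SE; edgeR adjusted p = 1.41e-07).

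The thioredoxin branch was uneven. TXNRD1, the cytosolic thioredoxin reductase (ENSG00000198431, chr12:104609557-104744085, plus strand, 17 exons), was at 382.0, 387.9 and 394.7 CPM in control and at 443.3, 443.3 and 445.3 CPM in knockdown, a log2 fold change of 0.22 ± 0.03 (SE; edgeR adjusted p = 4.9e-06). SRXN1, which encodes sulfiredoxin and repairs over-oxidised peroxiredoxins (ENSG00000271303, chr20:627259-633844, minus strand, 2 exons), was at 93.1, 89.8 and 89.5 CPM in control and at 109.1, 117.8 and 113.0 CPM in knockdown. Its log2 fold change was 0.35 ± 0.04 (SE; edgeR adjusted p = 1.68e-06). The groups of both genes were separate. Another annotated gene on the same strand covers 2292 nt of the SRXN1 transcript of 2528 nt, so its reads could be split between them.

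TXN, thioredoxin itself, the protein that TXNRD1 reduces, was at 280.7, 273.5 and 273.7 CPM in control and at 272.2, 269.6 and 286.5 CPM in knockdown (ENSG00000136810, chr9:113006090-113018787, minus strand, 5 exons). The groups overlapped, and knockdown libraries gave both the lowest and the highest value. The log2 fold change was 0.03 ± 0.03 (SE), with a 95% interval from -0.04 to 0.10 and an edgeR adjusted p of 0.499. TXN has the shortest canonical transcript of the 10 genes, 737 nt. After the length and GC correction its log2 fold change was 0.097 and passed the threshold (edgeR adjusted p = 0.00362), so the TXN result depends on whether that trend is removed. Without knockdown replicate 3 its log2 fold change was 1e-04 (edgeR adjusted p = 0.998).

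**Figure D2:**
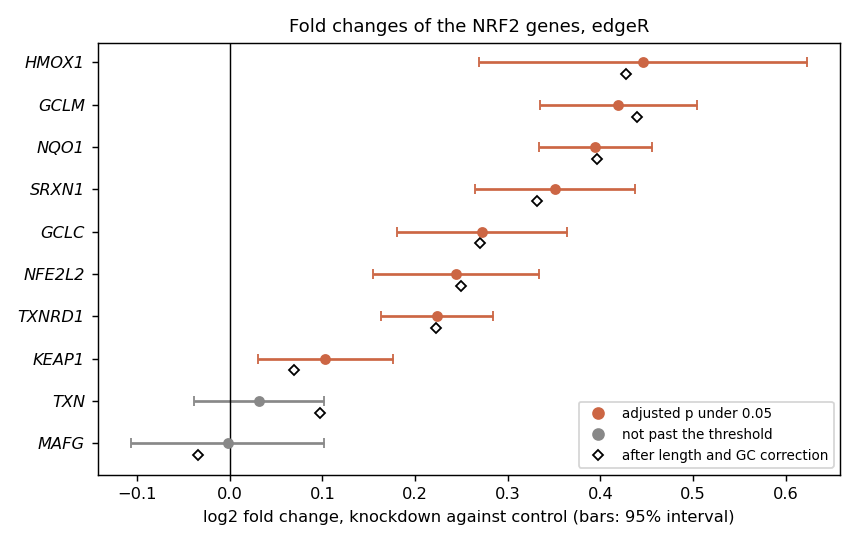
Log2 fold change of each NRF2 gene, knockdown against control, from edgeR (dots) with 95% intervals (bars), and the estimate after the length and GC correction (open diamonds). HMOX1, GCLM, NQO1 and SRXN1 lie highest, and the intervals of TXN and MAFG include 0.

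Ratios of counts within a library do not depend on scaling between libraries, and 4 were compared. The ratio of GCLM to GCLC was 1.34, 1.37 and 1.36 in control and 1.56, 1.47 and 1.49 in knockdown, so the modifier subunit rose more than the catalytic one in these libraries. The log2 difference was 0.15. The ratio of TXNRD1 to TXN was 1.36, 1.42 and 1.44 in control and 1.63, 1.64 and 1.55 in knockdown, a log2 difference of 0.19. The ratio of NFE2L2 to KEAP1 was 0.646, 0.709 and 0.657 in control and 0.743, 0.718 and 0.757 in knockdown, a log2 difference of 0.14. For each of these 3 ratios the groups were separate, and the exact two-sided permutation p was 0.1 (0.133 adjusted over the 4 ratios), the smallest that 3 against 3 can give. The ratio of NFE2L2 to its competitor BACH1 was 2.71, 2.98 and 2.33 in control and 3.06, 2.78 and 2.86 in knockdown, and the groups overlapped (exact permutation p = 0.4). BACH1 itself had means of 33.7 ± 3.26 and 35.9 ± 1.66 CPM (SD over the 3 libraries of control and of knockdown), with an edgeR adjusted p of 0.148. Without control replicate 3 BACH1 passed the threshold (log2 fold change 0.21, edgeR adjusted p = 0.0222).

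**Figure D3:**
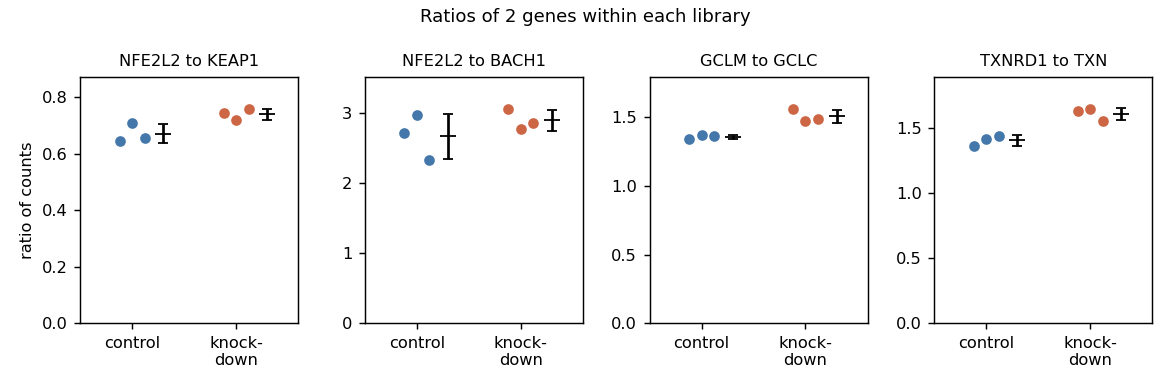
Ratio of the counts of 2 genes in each library (dots; y axes start at 0), with the mean and SD of each group of 3 (black). The groups are separate for NFE2L2 to KEAP1, GCLM to GCLC and TXNRD1 to TXN, and overlap for NFE2L2 to BACH1.

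To compare levels between the 10 genes, CPM were divided by the length of the canonical transcript in kb. On this scale TXN was the highest in control at 374 CPM per kb, followed by NQO1 at 191, TXNRD1 at 101 and KEAP1 at 52.0. NFE2L2 at 36.6 ± 1.29 and SRXN1 at 35.9 ± 0.774 CPM per kb did not differ beyond their spread (SD, n = 3 each). GCLM at 18.5 ± 0.676 and GCLC at 17.5 ± 0.488 CPM per kb were also within 2 SD of each other, with MAFG next at 16.2 ± 0.511, and HMOX1 was the lowest at 7.89. In knockdown GCLM was at 24.2 ± 0.505 and GCLC at 20.7 ± 0.430 CPM per kb, apart by more than their spread, and SRXN1 at 44.8 ± 1.71 and NFE2L2 at 42.4 ± 1.28 again lay close. Transcript ends used in these cells may differ from the canonical ones, which would shift these values.

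The 3 genes whose log2 CPM followed NFE2L2 most closely over the 6 libraries, among 6191 others whose counts averaged 500 or more, were COX7C, FBXL18 and CABLES1. Their Pearson correlations with NFE2L2 were 0.9973, 0.997 and 0.9945. COX7C encodes a cytochrome c oxidase subunit, FBXL18 an F-box protein and CABLES1 a protein that binds cyclin-dependent kinases. The 6 points share the difference between the groups, and its part in these correlations was not tested.

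CPM from here on are means ± SD over the 3 libraries of control and of knockdown. Of 22 listed partners and regulators of NRF2, all tested, 2 rose (9.09%) and 2 fell (9.09%), against 19.3% and 19.2% of all tested genes, and the median log2 fold change was -0.01. SQSTM1, an autophagy receptor that binds KEAP1 and is itself an NRF2 target, rose from 388 ± 5.22 to 554 ± 4.28 CPM (log2 fold change 0.54 ± 0.03 SE, edgeR adjusted p = 3.98e-11). NFE2L3, a relative of NFE2L2, rose from 122 ± 3.32 to 159 ± 3.60 CPM (edgeR adjusted p = 3.89e-08). RXRA, a nuclear receptor that can bind NRF2, fell by 0.19 on the log2 scale (edgeR adjusted p = 0.00154). RBX1, the RING subunit of the CUL3 ligase, fell by 0.14 (edgeR adjusted p = 0.0334), and lost its call without control replicate 2 (0.122) or 3 (0.0765) or knockdown replicate 1 (0.122) or 2 (0.107). The remaining subunit, CUL3, and the other small MAF genes MAFF and MAFK, chosen after their values were seen, had edgeR adjusted p of 0.317, 0.379 and 0.919.

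Of 30 other listed NRF2 target genes, 22 were tested. Of these 13 rose (59.1%, against 19.3% of all tested genes) and 1 fell (4.55%, against 19.2%), and their median log2 fold change was 0.17. PIR, an iron-binding nuclear protein, rose from 18.7 ± 1.22 to 26.9 ± 0.479 CPM (log2 fold change 0.55, edgeR adjusted p = 3.77e-06). TRIM16 (log2 fold change 0.43, edgeR adjusted p = 2.02e-07) and UGDH, which makes the UDP-glucuronate used in conjugation (0.37, edgeR adjusted p = 1.79e-06), also rose. TRIM16 shares sequence with its copy TRIM16L, which makes the split of reads between them uncertain. ME1, an NADPH-forming malic enzyme, was the gene that fell, from 58.7 to 60.7 CPM in control down to 45.8 to 49.1 CPM in knockdown (log2 fold change -0.29, edgeR adjusted p = 8.12e-05). The aldo-keto reductases AKR1B10, AKR1C1, AKR1C2 and AKR1C3, often used as NRF2 readouts and named here after their values were seen, had 0 to 10 counts per library and were not tested. The list count fell to 9 risers of 25 tested genes in DESeq2, where 1945 of 15331 genes in all were called higher. It fell to 9 of 22 at an adjusted p of 0.01 (1924 of 13832 genes in all). It was 10 of 23 without control replicate 2 (2320 of 14079 in all). Without knockdown replicate 1 or 2 it was 10 of 22 (2402 of 13947 and 2173 of 13937 in all).

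Heme and iron genes surround HMOX1 in its pathway. All 18 listed genes were tested, 11 rose (61.1%, against 19.3% of all tested genes) and 2 fell (11.1%, against 19.2%), and their median log2 fold change was 0.13. The number that rose was 8 in DESeq2, where 1945 of 15331 genes in all were called higher. It was 9 with library size alone, against 15.9% of all tested genes. It was also 9 at an adjusted p of 0.01, against 1924 of 13832 genes in all. FTH1 and FTL, the ferritin chains that store the iron released from heme, rose from 1380 ± 35.9 to 1711 ± 65.9 CPM and from 2102 ± 56.1 to 2368 ± 74.4 CPM (edgeR adjusted p = 7.37e-08 and 2.11e-05). PCBP1, an iron chaperone that loads ferritin, rose by 0.21 on the log2 scale (edgeR adjusted p = 1.41e-05). BLVRA and BLVRB, chosen after their values were seen, encode biliverdin reductases. Their log2 fold changes were 0.31 and 0.31 (edgeR adjusted p = 0.000178 and 0.00833). SLC40A1, the iron exporter, had 16 to 25 counts in control and 10 to 15 in knockdown, and fell (log2 fold change -1.19, edgeR adjusted p = 0.00352; 0.0523 in DESeq2). FECH, which inserts iron into protoporphyrin to form heme, fell by 0.23 (edgeR adjusted p = 0.0152). It lost its call without control replicate 2 (0.0508) or 3 (0.0859), without knockdown replicate 2 (0.0706) and in DESeq2 (0.143). Ferritin genes have many processed pseudogenes, and how shared reads were assigned is not given in the sources used here.

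Of 32 genes listed for the glutathione system beyond GCLC and GCLM, 30 were tested. Of these 6 rose (20.0%, near the 19.3% of all tested genes) and 9 fell (30.0%, against 19.2%), and their median log2 fold change was -0.05. GSS, the second enzyme of glutathione synthesis, rose from 193 ± 2.61 to 226 ± 1.49 CPM (log2 fold change 0.26, edgeR adjusted p = 2.83e-06). GSR, which reduces oxidised glutathione, rose by 0.24 on the log2 scale (edgeR adjusted p = 0.000111), and the transferase GSTP1 by 0.18 (edgeR adjusted p = 0.000498). GLO1, the glyoxalase that clears methylglyoxal, fell from 193 ± 4.48 to 143 ± 1.32 CPM (edgeR adjusted p = 2.2e-08). GPX8, a peroxidase of the endoplasmic reticulum, fell by 0.71 on the log2 scale (edgeR adjusted p = 1.72e-07). GSTM3 fell from 6.41 ± 0.715 to 1.79 ± 0.407 CPM (edgeR adjusted p = 5.24e-07), with reads that may be shared among the similar GSTM genes. SLC7A11, the cystine importer and a well-known NRF2 target named after its values were seen, was at 56.8 ± 3.13 and 54.1 ± 1.64 CPM (edgeR adjusted p = 0.543). The largest rise and fall of this list, also named after their values were seen, were in genes with few counts. GPX2 rose from 0.595 ± 0.0404 to 1.34 ± 0.276 CPM (log2 fold change 1.20, edgeR adjusted p = 0.00732). GSTM2 fell from 3.16 ± 0.154 to 0.757 ± 0.231 CPM (-2.04, edgeR adjusted p = 5.29e-06).

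In the thioredoxin and peroxiredoxin system, all 20 listed genes were tested. Of these 2 rose (10.0%, against 19.3% of all tested genes) and 3 fell (15.0%, against 19.2%), and their median log2 fold change was -0.03. TXNIP, an inhibitor of thioredoxin, rose from 107 ± 1.13 to 135 ± 1.16 CPM (edgeR adjusted p = 1.77e-07). SESN3, a sestrin, rose by 0.53 on the log2 scale (edgeR adjusted p = 2.04e-06). The peroxiredoxin PRDX4 fell by 0.23 (edgeR adjusted p = 0.000396). PRDX5 (log2 fold change -0.17, edgeR adjusted p = 0.0395) and SESN2 (-0.28, edgeR adjusted p = 0.0196) fell too, but neither call held in every fit that left out 1 library. PRDX5 was not called without control replicate 1 (0.232) or knockdown replicate 1 (0.202) or 2 (0.0945). SESN2 was not called without control replicate 1 (0.0542) or 2 (0.0505) or knockdown replicate 1 (0.0637). In DESeq2 the adjusted p was 0.132 for PRDX5 and 0.189 for SESN2. PRDX1, an NRF2 target chosen after its values were seen, had a log2 fold change of 0.05 (edgeR adjusted p = 0.211).

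Of 18 other oxidant sources and scavengers, 9 were tested. Of these 3 rose (33.3%, against 19.3% of all tested genes) and 1 fell (11.1%, against 19.2%), and their median log2 fold change was -0.03. OXR1, an oxidation resistance gene, rose from 275 ± 8.07 to 399 ± 6.75 CPM (log2 fold change 0.57, edgeR adjusted p = 9.93e-11). TIGAR, a fructose bisphosphatase that favours NADPH formation, and NQO2, a relative of NQO1, rose by 0.22 and 0.15 on the log2 scale (edgeR adjusted p = 0.0383 and 0.0395). TIGAR lost its call without control replicate 2 (0.133) or 3 (0.0924) or knockdown replicate 2 (0.0823) or 3 (0.208), and NQO2 without control replicate 1 (0.105) or 2 (0.110) or knockdown replicate 2 (0.185) or 3 (0.0518). With library size alone TIGAR had an adjusted p of 0.0735 and NQO2 of 0.102. CAT, catalase, fell by 0.25 (edgeR adjusted p = 0.0205), and lost its call without control replicate 1 (0.0630) or 2 (0.0705) or knockdown replicate 1 (0.0831) or 3 (0.0765). In DESeq2 the adjusted p of the 3 genes was 0.147, 0.189 and 0.137. Over the 6 lists 37 of 121 tested genes rose (30.6%, against 19.3% of all tested genes) and 18 fell (14.9%, against 19.2%). With library size alone 30 rose (24.8%, against 15.9%) and 24 fell (19.8%, against 23.1%). Without control replicate 1, the library highest in collagen counts, 34 of 122 rose (27.9%, against 16.4%) and 14 fell (11.5%, against 16.3%).

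**Figure D4:**
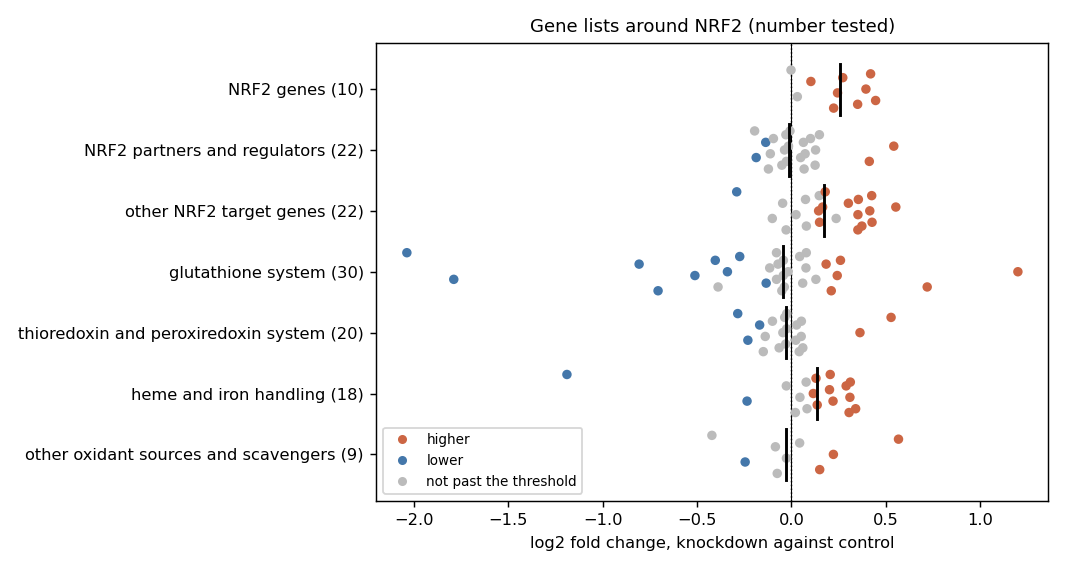
Log2 fold change, knockdown against control, of each tested gene in the 10 NRF2 genes and 6 surrounding lists (dots, coloured by call), with the median of each list (black bar) and that of all tested genes (dotted line, -0.00). The medians of the NRF2 genes (0.26), the other NRF2 targets (0.17) and the heme and iron genes (0.13) lie to the right of the dotted line.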

How the data were processed

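Total RNA of 6 cultures (1000 ng each) was made into PCR-amplified Illumina libraries, per the labels' protocols. The authors deposited whole-number counts per gene symbol and a normalized signal. Within a library the counts exceed or fall short of that signal by 1 constant factor, from 0.847 to 1.25, as tested on the files. The submitters' processing notes name STAR 2.6.1a, Salmon, DESeq2 and hg19 without their roles. The annotation, strand setting and treatment of shared reads are not given in the sources used here. Locations and lengths came from GENCODE 44 lifted to GRCh37.

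Counts were tested with edgeR 4.0.16 in R 4.3.3 (TMM factors, filterByExpr, quasi-likelihood F-test, group as the only term) over 13832 genes, with Benjamini-Hochberg adjustment and a threshold of 0.05. The SE was obtained by dividing the size of the log2 fold change by the root of F. The 95% intervals use the total degrees of freedom of that test, the residual ones plus the prior ones estimated across genes. CPM use library totals. Scripts were tested on simulated counts. The alternatives were other scalings and count filters, DESeq2 1.42.0, limma 3.58.1 voom, limma on log2 of the deposited signal plus 1, thinning to the smallest library, a spline correction for transcript length and GC content (95.8% of tested genes had both), a replicate block and leaving out each library. Total counts were 11816973 to 18114656 per library. Amplified reads are not independent molecules. 0 columns were left unused.

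The 10 genes and the 6 surrounding lists were chosen with earlier results of these data known. Named genes were IRS2, the 10 genes, BACH1, and from each list the 3 rises and 3 falls with the smallest p past the threshold.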

Additional observations from a re-analysis of the deposited data

How the results depend on the processing

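NFE2L2, NQO1, HMOX1, GCLC, GCLM, TXNRD1, SRXN1 and IRS2 were called in the same direction in all 18 alternative fits. The largest adjusted p among these NRF2 genes was 0.00604, for HMOX1 in DESeq2. The number of NRF2 genes called higher was 7 or 8 in every alternative, and 0 were called lower. The number of all genes called higher ran from 1924 of 13832 (adjusted p of 0.01) to 2994 of 19882 (no count filter). The 6 surrounding lists gave 9 falls in DESeq2 and 11 at an adjusted p of 0.01, against 18 of 121 in the main fit. DESeq2 called 1654 of 15331 genes lower in all, against 2653 of 13832. At 0.01, 3714 of 13832 genes were called in either direction, against 5329. KEAP1 had log2 fold changes of 0.0824 with upper-quartile factors, 0.0727 with library size alone, 0.1115 in DESeq2 and 0.0694 after the length and GC correction, none of them past the threshold, and 0.0970 to 0.1163 when single libraries were left out. TXN passed after the length and GC correction (0.0973). MAFG turned to 0.0092 without the count filter, 0.0076 in DESeq2 and with the deposited signal, and 0.0016 after thinning, and ran from -0.0293 to 0.0550 without single libraries. Apart from the correction's own construction, the cause was not tested. With HMOX1 at 145 to 302 counts, depth limits its precision most. Library size alone moved the median log2 fold change of all genes to -0.03.

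Replicate numbers are shared by the 2 groups, but the deviations of same-numbered libraries correlated at 0.04, -0.01 and -0.10. No clear deviation shared by same-numbered libraries was thus seen, which does not tell whether they were prepared together. With the replicate block 7 of the 10 NRF2 genes were called higher, 0 lower. In that fit 2455 of 13832 genes in all were called higher. KEAP1 had a log2 fold change of 0.1034 (edgeR adjusted p = 0.0564), and NFE2L2 of 0.24 (0.00101). With the block and the length and GC correction together KEAP1 was at 0.0689 and TXN at 0.0974, past the threshold. Of 6 libraries, 1 correlated best with its own number. Under the block PRDX5 (edgeR adjusted p = 0.0628), TIGAR (0.0565) and NQO2 (0.0624) were no longer called. Exchanging labels within pairs gave an exact p of 0.25 for 3 ratios, the smallest that 3 pairs can give, and 0.5 for NFE2L2 to BACH1. Pairing leaves the log2 differences of the ratios as they are, at 0.14, 0.12, 0.15 and 0.19.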

Other observations

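The stricter element letters TGACTCAGC were also looked for upstream of all tested genes, as a description without a test. Of 159 tested genes with a match in the 1000 bases upstream, 46 were called higher (28.9%) and 29 lower (18.2%). Their median log2 fold change was 0.02. Of 12448 genes without one, 20.5% were called higher and 19.7% lower. For the short form TGACNNNGC, 20.7% of 4265 genes with a match were called higher and 19.0% lower, against 20.5% and 20.0% of 8342 without. Genes with a match included SQSTM1 and GSTP1, which rose, and ME1, which fell, so the letters alone did not go with 1 direction. Of the other listed genes with a match, NQO1 and AIFM2 rose, and FECH and GSTK1 fell. ABCC1, TALDO1, GPX4, GSTA4 and PDGFRB did not pass the threshold. SQSTM1, GSTP1 and ME1 are shown as examples on the gene's strand with the match in capitals (GRCh37).
SQSTM1 (chr5:179247537-179247577, opposite strand, 344 bases upstream): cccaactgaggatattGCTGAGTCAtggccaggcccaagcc
GSTP1 (chr11:67351201-67351241, 58 bases upstream): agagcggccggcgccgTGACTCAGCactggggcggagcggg
ME1 (chr6:84140883-84140923, 129 bases upstream): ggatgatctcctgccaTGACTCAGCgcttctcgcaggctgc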
